A study of Mus musculus with 14 samples.

Results

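The 37 genes described here encode proteins that make ribosomes in the nucleolus: subunits and factors of RNA polymerase I, the proteins of small nucleolar ribonucleoproteins (snoRNPs), assembly factors of the small and the large ribosomal subunit, and regulators such as Myc. They are listed by name from the known pathway, with no threshold on their values, though the list was drawn up with earlier results of these data known, and each was read through the probe with the highest mean among the probes that name it alone. All 37 were measured, out of 19938 genes in the deposited table. Liver of female mice aged 14 months had been profiled on Affymetrix gene arrays. Wild-type C57BL/6 liver gave 3 arrays, tumour-free liver of Mdr2-KO mice gave 5, and tumour-free liver of Mdr2-KO/IL6-KO mice, which lack Mdr2 and interleukin 6, gave 6. The labels give a strain for the wild-type mice alone, so the background of the knockouts is not known here, and they do not say whether each array stands for a separate mouse. The p-values therefore measure the spread between arrays. Mdr2 is the mouse protein encoded by Abcb4, which moves phosphatidylcholine into bile. Its loss leaves bile acids unbuffered and causes chronic bile duct and liver injury.

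Ribosome production starts with RNA polymerase I, which copies the ribosomal DNA repeats into a long precursor RNA. Box C/D snoRNPs then guide methylation of ribose groups and box H/ACA snoRNPs guide the change of uridine to pseudouridine in that precursor, while large assembly machines fold and cut it into the RNAs of the small and the large subunit. Growth and regeneration of the liver raise this output, and the transcription factor MYC is known to drive many of these genes through E-box sequences near their start sites.

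The promoters of 4 members that passed the test in at least 1 comparison are shown because they hold a searched motif and their genes did not move alike. The sequences are from RefSeq on the GRCm38.p6 build, 250 bases that end just before the transcription start, read 5′ to 3′ on the gene's strand. Capitals mark CCGGAAG, the core bound by ETS factors, on either strand in Gar1, Nhp2 and Nop2, and CACGTG, the E-box, in Nop2 and Imp4. They span chr3:129831397-129831646 (minus strand) for Gar1, chr11:51619523-51619772 (plus strand) for Nhp2, chr6:125131633-125131882 (plus strand) for Nop2 and chr1:34439579-34439828 (plus strand) for Imp4.
Gar1: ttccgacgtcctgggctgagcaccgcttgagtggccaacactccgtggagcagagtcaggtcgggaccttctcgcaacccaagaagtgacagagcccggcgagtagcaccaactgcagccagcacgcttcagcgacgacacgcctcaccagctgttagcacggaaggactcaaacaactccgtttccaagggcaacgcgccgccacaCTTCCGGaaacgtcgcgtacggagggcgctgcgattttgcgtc
Nhp2: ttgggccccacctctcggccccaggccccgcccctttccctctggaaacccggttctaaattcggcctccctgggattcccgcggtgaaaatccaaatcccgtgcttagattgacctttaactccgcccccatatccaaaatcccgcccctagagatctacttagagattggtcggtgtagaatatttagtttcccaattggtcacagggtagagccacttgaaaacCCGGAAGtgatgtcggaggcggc
Nop2: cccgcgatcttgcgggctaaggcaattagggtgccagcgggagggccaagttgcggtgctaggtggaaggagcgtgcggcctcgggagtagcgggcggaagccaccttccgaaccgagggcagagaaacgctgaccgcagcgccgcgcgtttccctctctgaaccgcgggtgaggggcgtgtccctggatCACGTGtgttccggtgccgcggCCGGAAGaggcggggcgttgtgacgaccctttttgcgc
Imp4: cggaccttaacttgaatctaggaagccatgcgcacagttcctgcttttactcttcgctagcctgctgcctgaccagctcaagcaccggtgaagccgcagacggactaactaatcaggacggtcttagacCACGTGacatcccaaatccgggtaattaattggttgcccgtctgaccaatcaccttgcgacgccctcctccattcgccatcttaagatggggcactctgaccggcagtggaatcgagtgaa
The ETS core lies 43 bases before the start of Gar1, on the opposite strand, and 23 bases before the start of Nhp2. In Nop2 the E-box begins 60 bases and the ETS core 38 bases before the start, without overlap, and the E-box of Imp4 begins 121 bases before it.

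Promoters of 30 of the 37 members were found in the RefSeq table, and each search covered 250 bases before to 50 bases after the start on both strands. The E-box CACGTG was present in 7 of the 30 (23.3%), namely Imp4, Mybbp1a, Nop2, Pes1, Utp18, Utp20 and Wdr43, against 8.09% of 27025 genes in the table. CCGGAAG was present in 8 (26.7%), namely Gar1, Nhp2, Nolc1, Nop2, Polr1c, Polr1e, Utp18 and Utp3, against 9.93% of genes. The palindrome bound by NRF1 was in none of the 30 windows and in 1.07% of genes. Bop1, Rrs1, Utp6, Rrp12, Fbl, Myc and Npm1 were not matched. These are matches of letters, not measured binding sites, and members with the same motif did not share a direction: among the ETS carriers Nhp2 rose and Gar1 fell in Mdr2-KO liver, and among the E-box carriers Pes1 rose and Nop2 fell.

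Values are log2 signals. The arrays had medians between 6.15 and 6.24, and a background of 5.48 was set so that 95% of 1027 olfactory receptor genes fell under it. Members had mean levels from 6.15 (Polr1e) to 10.09 (Imp3), with a median of 7.82 against 6.56 over all genes, and none had a mean under the background. The median SD of the members was 0.11 over the wild-type arrays and 0.09 within each knockout group. Abcb4 was at 10.33 to 10.39 in wild type, 8.73 to 9.23 in Mdr2-KO and 8.77 to 9.24 in Mdr2-KO/IL6-KO, as the labels have it. Il6 was under the background on all 14 arrays (2.91 to 4.00), so these data do not check the second deletion. Abcb4 and Il6 lie on chromosome 5, as do the members Utp3 and Nop14. In whole liver, fewer cells of a type and less RNA per cell cannot be told apart.

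Ribosome biogenesis genes did not move as a block in any comparison. In Mdr2-KO against wild type, 5 of 37 rose (13.5%; background 8.89% of all genes), namely Fbl, Nop58, Nhp2, Pes1 and Rrs1, and 6 fell (16.2%; background 12.1%), namely Polr1b, Ubtf, Dkc1, Gar1, Nop2 and Nop16, with 26 not passing an adjusted p of 0.05 in limma. Fbl is counted here by its probe of highest mean, and its other probe fell, as given below. With probes that lie at the gene's own place for Fbl, Taf1d and Wdr12, 4 rose and 7 fell. Those probes were chosen after the data were seen. By the probes of highest mean, the median difference of the members was 0.02 against -0.07 over all genes. In Mdr2-KO/IL6-KO against wild type, 3 rose (8.11%; background 6.96%), namely Nhp2, Pes1 and Myc, and 2 fell (5.41%; background 5.33%), namely Dkc1 and Utp3, and the members' median was 0.04 against -0.02. In Mdr2-KO/IL6-KO against Mdr2-KO, 6 were higher (16.2%; background 5.04%), namely Polr1b, Polr1c, Ubtf, Gar1, Imp4 and Nop16, and 3 were lower (8.11%; background 3.72%), namely Nop58, Utp3 and Rrs1, and the members' median was 0.03 against 0.06. Both comparisons with wild type rest on the same 3 wild-type arrays. The groups did not overlap for any of the 11 members called in the first comparison or the 5 called in the next. They overlapped for Polr1b and Polr1c among the 9 called between the knockouts. Called members were picked on these same values, so the lack of overlap is no further support for the calls. Polr1a, Npm1, Nolc1 and Imp4 also had no overlap in Mdr2-KO against wild type and did not pass. The share without overlap was not counted over all genes.

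The count of members higher in Mdr2-KO/IL6-KO than in Mdr2-KO depended on scaling. After centring of each array the split of 6 higher and 3 lower became 2 and 4, whereas under quantile normalization it was again 6 and 3. Polr1b, Polr1c, Ubtf and Imp4 lost their calls under centring (adjusted p = 0.0554, 0.0728, 0.0593 and 0.0817), and Taf1d gained a call as lower (adjusted p = 0.0396). In Mdr2-KO/IL6-KO against wild type the split became 3 higher and 1 lower under centring. Quantile normalization turned 5 higher and 6 lower in Mdr2-KO against wild type into 4 and 8. Of the 37 members, 15 passed in at least 1 comparison and 22 in none. The 22 lay between -0.44 and 0.33 in Mdr2-KO against wild type, between -0.35 and 0.25 for Mdr2-KO/IL6-KO, and from -0.26 to 0.16 where the knockouts were compared.

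**Figure D1:**
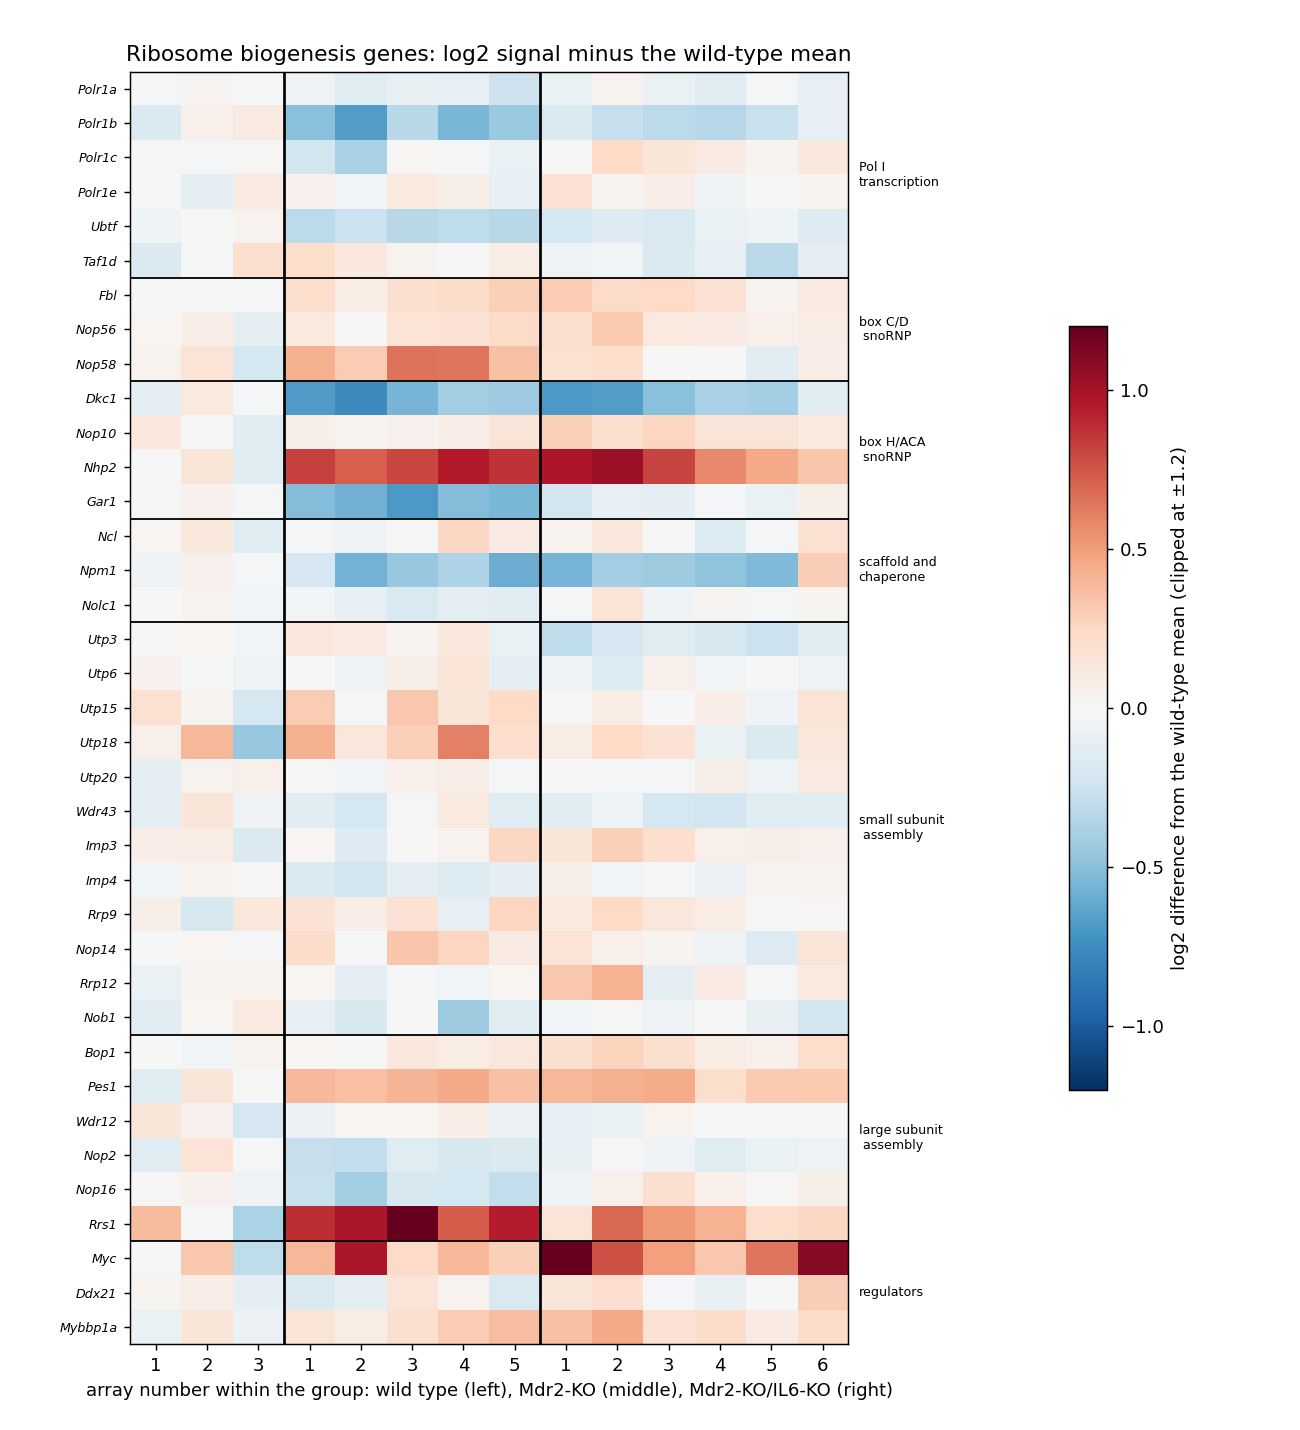
Log2 signal of each of the 37 members (rows, grouped by role) on each of the 14 arrays (columns), minus the wild-type mean of that gene; red is higher, blue is lower, and colours are clipped at the ends of the scale. Nhp2 and Rrs1 are red and Dkc1 and Gar1 blue across the 5 Mdr2-KO arrays, while most other rows stay near white.

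**Figure D2:**
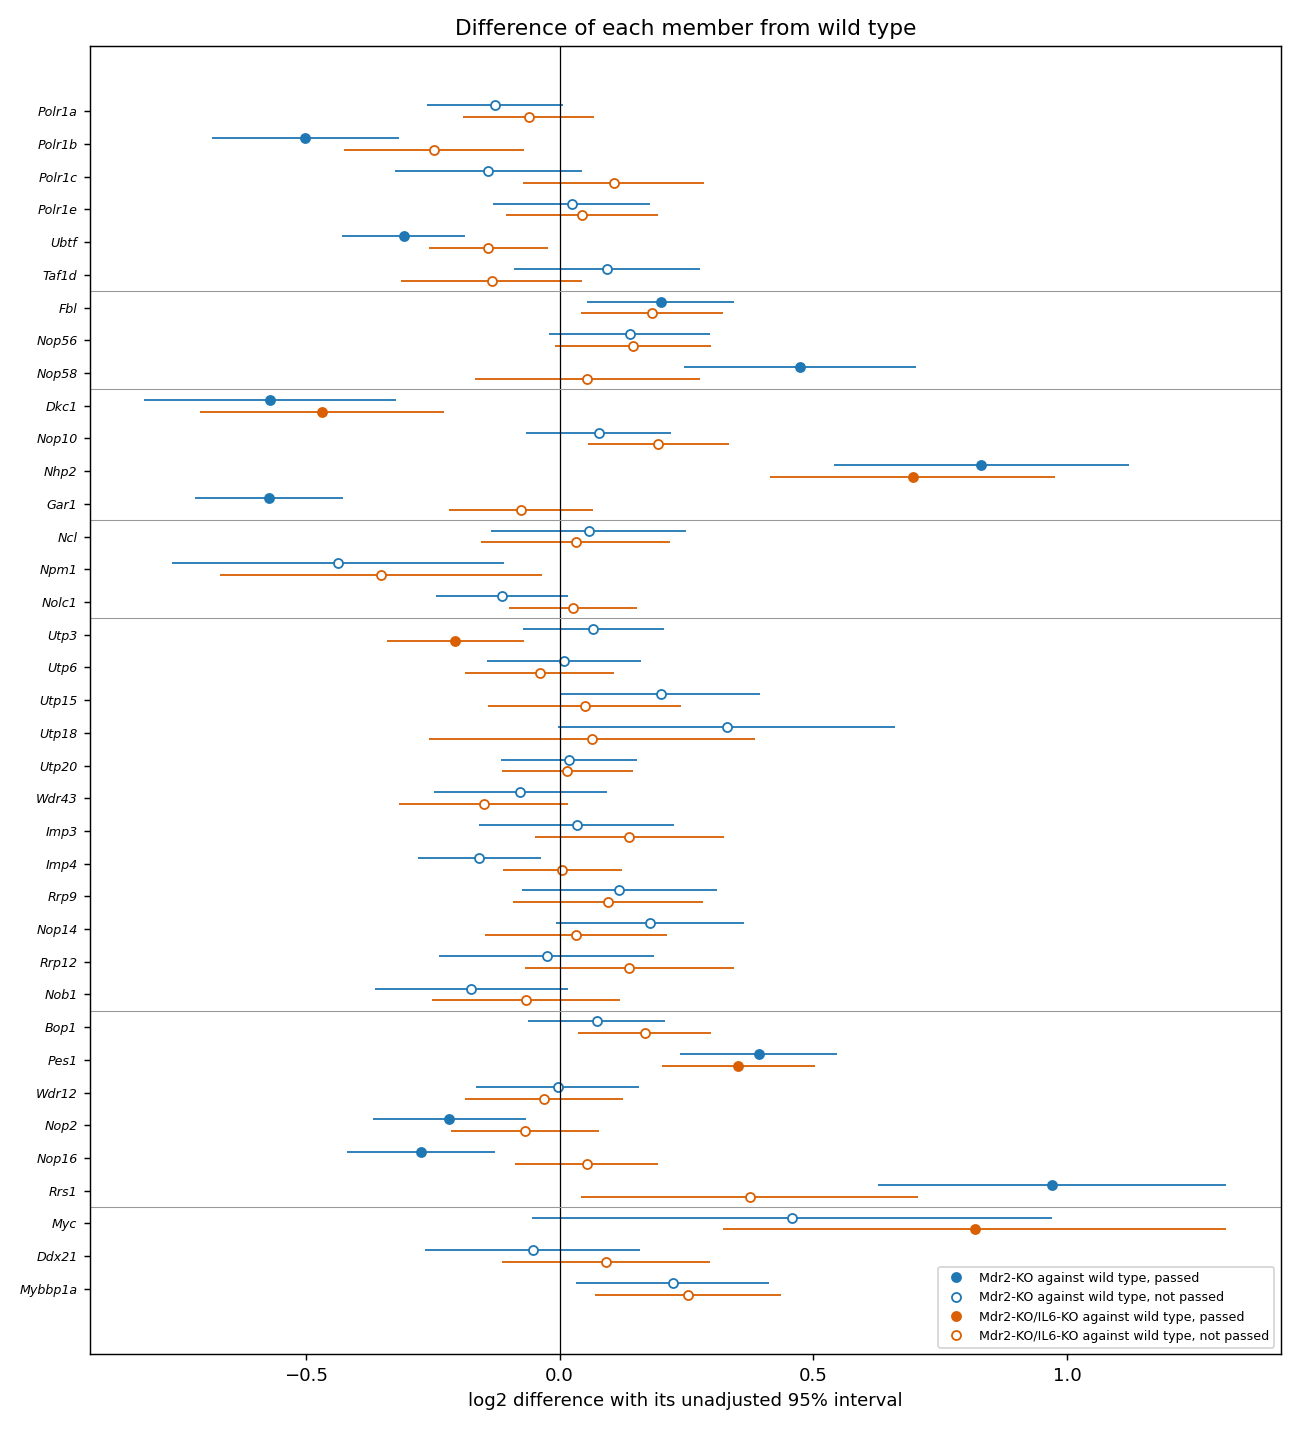
Log2 difference of each member from wild type with its unadjusted 95% interval, for Mdr2-KO (blue) and Mdr2-KO/IL6-KO (orange); filled points passed an adjusted p of 0.05 and open points did not. Called members lie on both sides of 0, from -0.57 for Gar1 and Dkc1 to 0.97 for Rrs1 in Mdr2-KO.

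Of 6 genes of RNA polymerase I transcription, each read by its probe of highest mean, 2 (33.3%) fell in Mdr2-KO liver and 0 rose. Over all genes 12.1% fell and 8.89% rose. Other probes of Taf1d, 1 of the 6 genes, did rise, as given below. Polr1b encodes the second-largest subunit of the enzyme. It read 8.00, 8.24 and 8.28 on the wild-type arrays, 7.67, 7.50, 7.84, 7.62 and 7.73 in Mdr2-KO, and 7.83 to 8.08 (median 7.90) in Mdr2-KO/IL6-KO. All 5 Mdr2-KO arrays lay below every wild-type array. The difference was -0.50 (SE 0.09, adjusted p = 0.00134) in Mdr2-KO against wild type, -0.25 (SE 0.08, adjusted p = 0.0675) for Mdr2-KO/IL6-KO against the same arrays and 0.25 (SE 0.07, adjusted p = 0.0408) between the knockouts.

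Ubtf encodes UBF, which coats active ribosomal DNA and recruits the polymerase. It read 9.03, 9.08 and 9.12 in wild type, 8.76, 8.81, 8.74, 8.77 and 8.74 in Mdr2-KO, and 8.86 to 9.02 (median 8.92) in Mdr2-KO/IL6-KO. The 3 groups did not overlap, and Mdr2-KO/IL6-KO lay between the other two. Ubtf fell by 0.31 on the log2 scale in Mdr2-KO (SE 0.06, adjusted p = 0.00208). It was higher by 0.17 in Mdr2-KO/IL6-KO than in Mdr2-KO (SE 0.05, adjusted p = 0.0410), and its difference of -0.14 from wild type in Mdr2-KO/IL6-KO did not pass (adjusted p = 0.116).

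Polr1c, a subunit that polymerases I and III share, was tightly grouped in wild type at 8.37, 8.33 and 8.36. Mdr2-KO arrays read 8.13, 7.96, 8.36, 8.33 and 8.27, and Mdr2-KO/IL6-KO arrays read 8.35 to 8.59 (median 8.47). It was higher by 0.25 in Mdr2-KO/IL6-KO than in Mdr2-KO (SE 0.07, adjusted p = 0.0451), with groups that overlap, and passed against wild type in neither knockout. The calls of Polr1b, Polr1c and Ubtf between the knockouts were each lost on leaving out any of 8 arrays, at adjusted p from 0.0510 to 0.0877 for Polr1b, 0.0556 to 0.107 for Polr1c and 0.0561 to 0.0880 for Ubtf. That of Polr1c was also lost with all probes tested (adjusted p = 0.0517) or only the 2 groups compared (adjusted p = 0.0545). Polr1a, the catalytic subunit, read 7.87 to 7.93 in wild type and 7.64 to 7.84 in Mdr2-KO (difference -0.13, adjusted p = 0.151). Polr1e, a subunit that docks initiation factors, differed by 0.02 with an unadjusted 95% interval of -0.13 to 0.18.

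**Figure D3:**
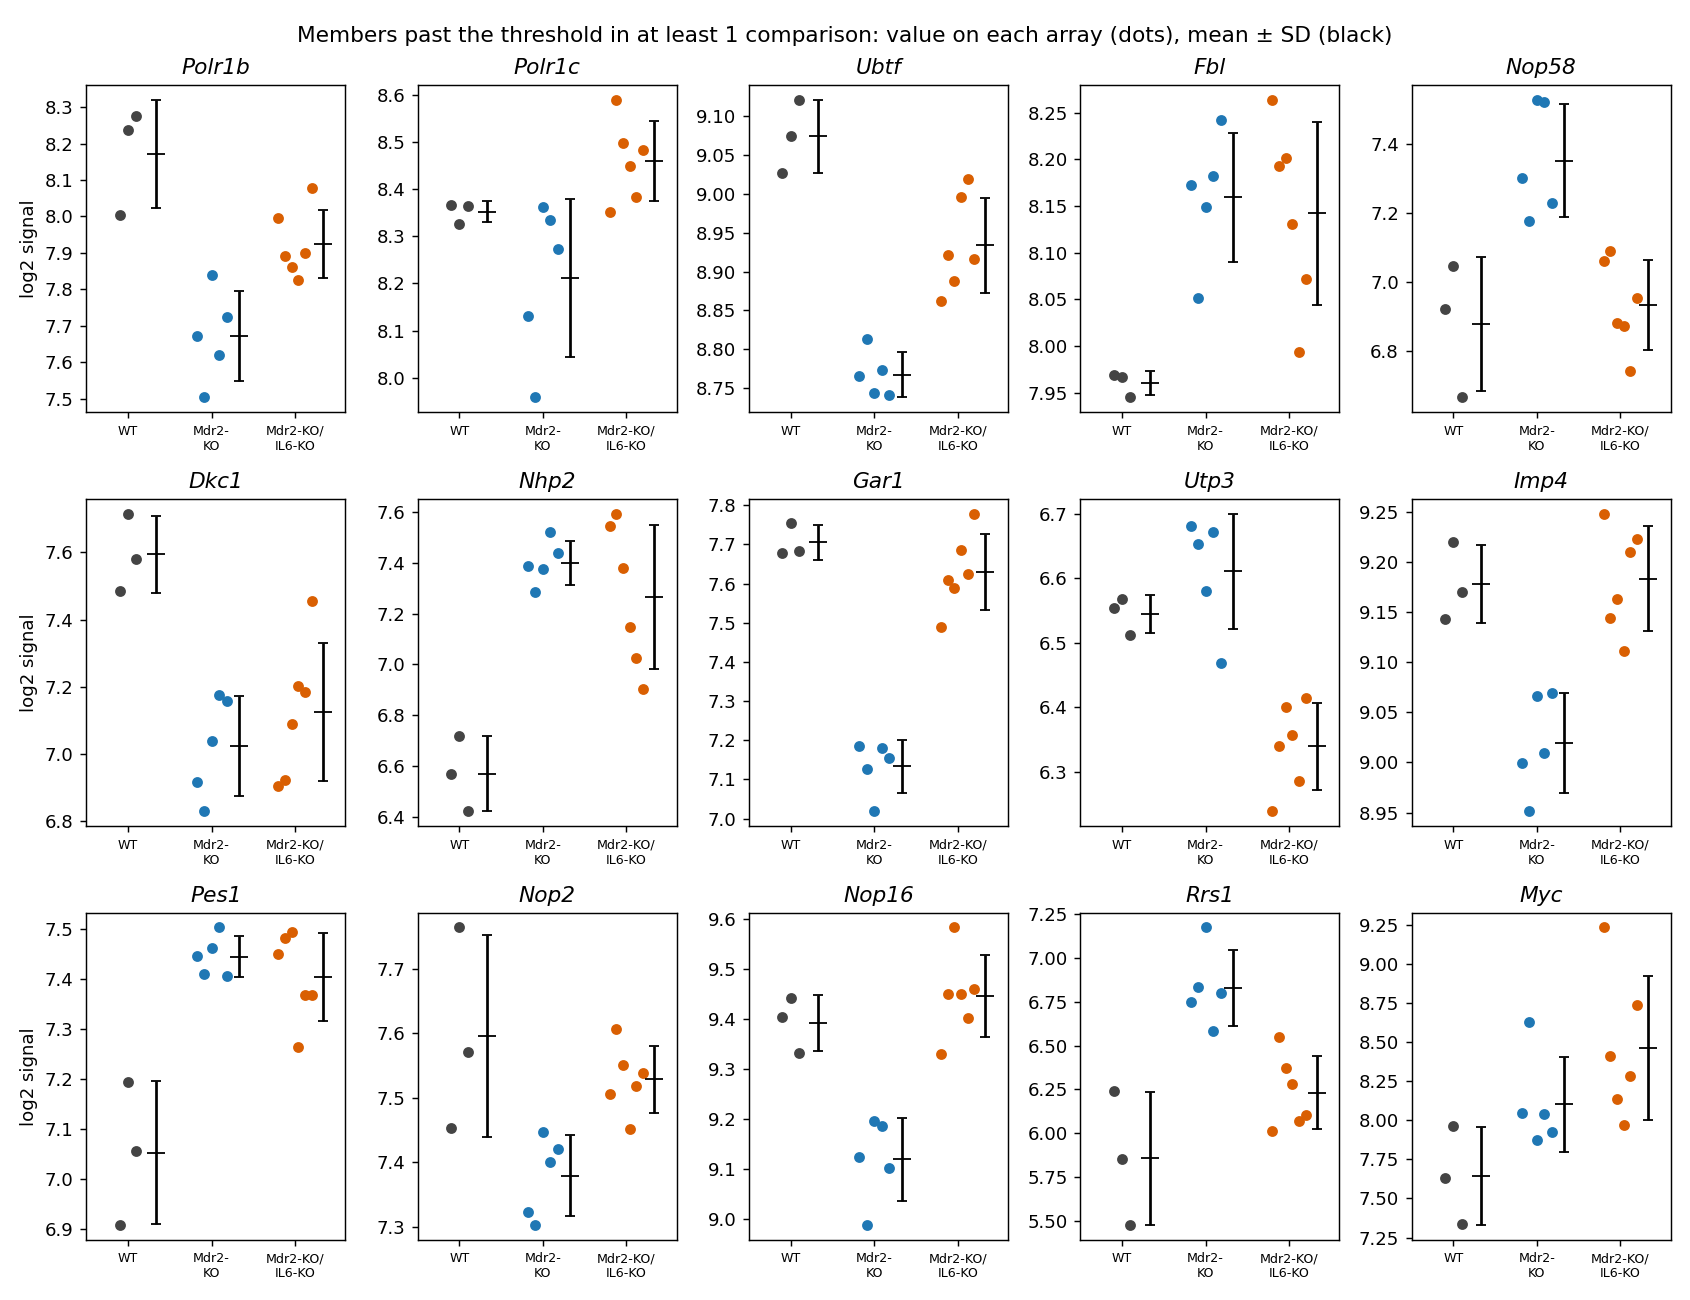
Log2 signal on each array (dots) with the group mean and SD (black bars) for the 15 members that passed in at least 1 comparison; each panel has its own vertical scale, which does not start at 0. In Gar1, Ubtf and Nop16 the Mdr2-KO arrays lie below both other groups, whereas in Nhp2 and Pes1 both knockouts lie above wild type.

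The box C/D snoRNP core gave different results by gene and, for Fbl, by probe. Nop58, a core scaffold protein of these particles, read 6.92, 7.05 and 6.67 in wild type and 7.30, 7.18, 7.53, 7.52 and 7.23 in Mdr2-KO, with no overlap. In Mdr2-KO/IL6-KO it read 6.74 to 7.09 (median 6.92), within the wild-type range or just above it. Nop58 rose by 0.47 in Mdr2-KO (SE 0.11, adjusted p = 0.00703), differed by 0.05 in Mdr2-KO/IL6-KO against wild type (adjusted p = 0.809), and was lower by -0.42 in Mdr2-KO/IL6-KO than in Mdr2-KO (SE 0.09, adjusted p = 0.0117). Without wild type array 3 the rise in Mdr2-KO missed the threshold (0.37, adjusted p = 0.0511). Its partner Nop56 read 7.90 to 8.09 in wild type, 8.01 to 8.24 in Mdr2-KO and 8.07 to 8.32 in Mdr2-KO/IL6-KO, with a difference of 0.14 in each knockout that did not pass (adjusted p = 0.185 and 0.225).

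Fbl encodes fibrillarin, the methyltransferase of the box C/D particles, and 2 probes name it alone. The probe of highest mean read 7.97, 7.97 and 7.95 in wild type, 8.17, 8.05, 8.15, 8.18 and 8.24 in Mdr2-KO, and 7.99 to 8.26 (median 8.16) in Mdr2-KO/IL6-KO. By this probe Fbl rose by 0.20 in Mdr2-KO (SE 0.07, adjusted p = 0.0493), a call lost on leaving out any of 11 of the 14 arrays (adjusted p 0.0519 to 0.133), and under quantile normalization (adjusted p = 0.110), all probes tested (adjusted p = 0.0575) or only the 2 groups compared (adjusted p = 0.0813). The other probe read 8.11, 7.88 and 8.10 in wild type, 7.57, 7.73, 7.51, 7.69 and 7.77 in Mdr2-KO, and 8.00 to 8.07 in Mdr2-KO/IL6-KO. By this second probe Fbl fell by 0.38 on the log2 scale in Mdr2-KO (adjusted p = 0.00274) and was higher by 0.38 in Mdr2-KO/IL6-KO than in Mdr2-KO (adjusted p = 0.00252). Fbl lies on chromosome 7. Of the 20 probes numbered next to the second probe, all 20 name genes of chromosome 7 within 2 Mb of Fbl. Of the 20 next to the probe of highest mean, 17 name genes of chromosome 17. The direction of Fbl thus rests on the probe, and the use of the second probe was chosen after the data were seen. With own-locus probes for Fbl, Taf1d and Wdr12, 7 members were higher and 3 lower in Mdr2-KO/IL6-KO than in Mdr2-KO.

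Taf1d, a subunit of the factor that places polymerase I on its promoter, and Wdr12 of the large subunit pathway are also named by more than 1 probe. Taf1d is named by 9 probes, 4 of which have equal values on every array, and 1 cites a RefSeq transcript. The probe of highest mean read 9.40 to 9.77 in wild type, 9.57 to 9.78 in Mdr2-KO and 9.25 to 9.54 in Mdr2-KO/IL6-KO, and passed in no comparison. All 16 of its neighbours name genes of chromosome 9, where Taf1d lies. Between the knockouts it differed by -0.23 without overlap (limma, adjusted p = 0.0591). That difference passed under centring (adjusted p = 0.0396) and array weights (adjusted p = 0.0310), among other settings. The probe that cites the transcript read 7.61 to 7.94, 7.13 to 7.59 and 7.12 to 8.02, with a difference of -0.45 in Mdr2-KO (adjusted p = 0.0850 over all probes). A further probe of the gene, which cites a cDNA, read 5.71 to 5.97 in wild type, 7.22 to 7.47 in Mdr2-KO and 5.96 to 6.55 in Mdr2-KO/IL6-KO. It rose by 1.53 in Mdr2-KO (SE 0.13, adjusted p = 2.41e-05 over all probes) and was lower by -1.14 in Mdr2-KO/IL6-KO than in Mdr2-KO (adjusted p = 0.000378). RefSeq places 6 snoRNA genes inside Taf1d, and which of its transcripts this probe reads was not tested. Another Taf1d probe, whose 20 neighbours all name genes of chromosome 2, rose by 0.39 in Mdr2-KO (adjusted p = 0.0152 over all probes). The same probe was lower by -0.61 in Mdr2-KO/IL6-KO than in Mdr2-KO (adjusted p = 0.000976 over all probes). For Wdr12, on chromosome 1, 18 of the 20 neighbours of the probe of highest mean name genes of chromosome 7. That probe differed by 0.00 to 0.03 between groups in size, and the probe at the gene's own place read 6.27 to 6.48, 6.22 to 6.56 and 6.13 to 6.30 without passing in any comparison.

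**Figure D4:**
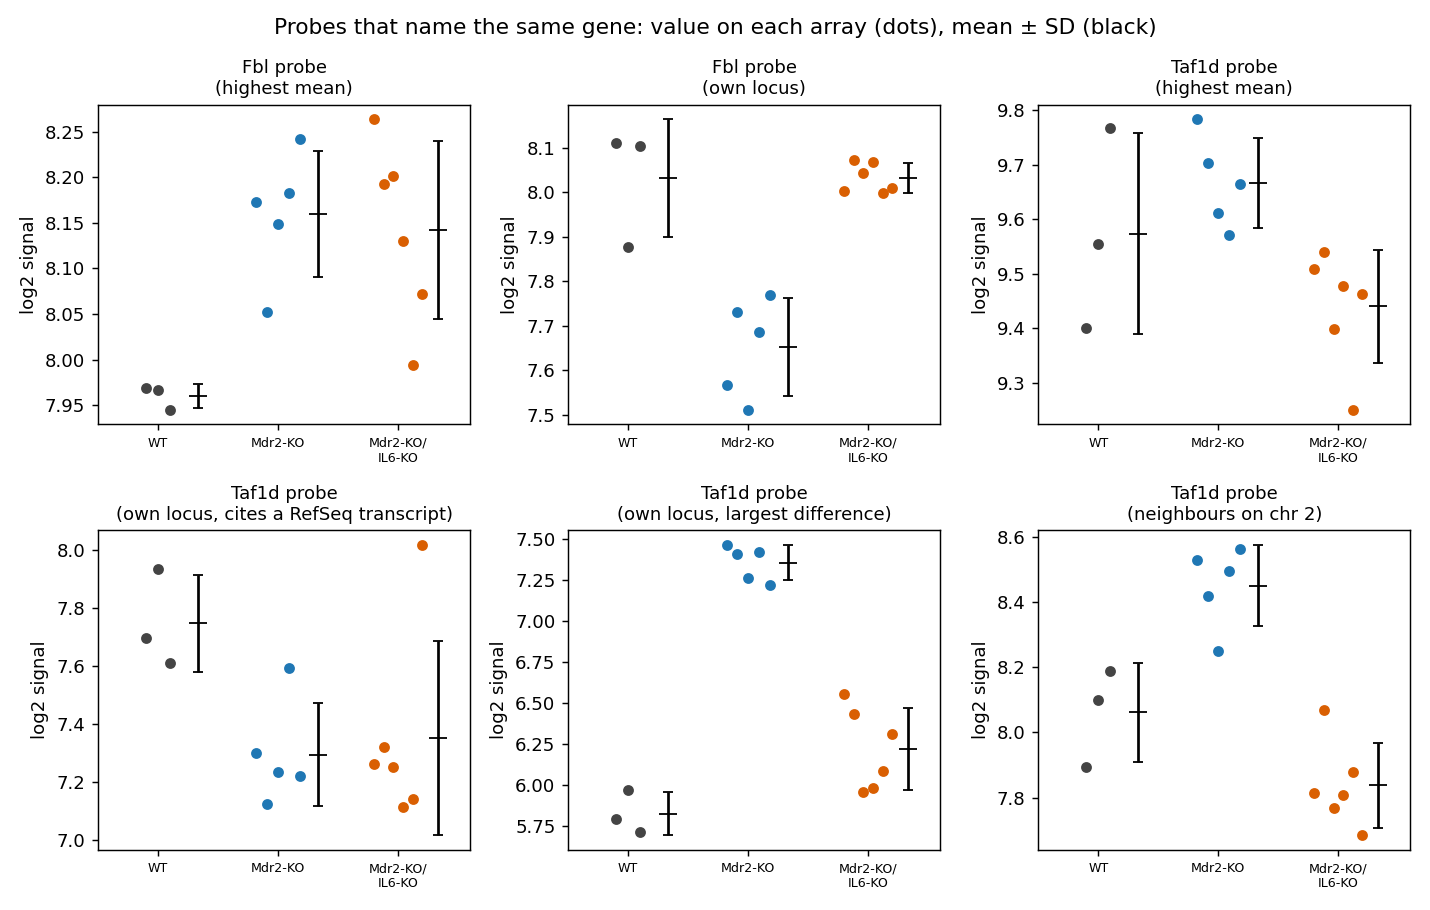
Log2 signal on each array (dots) with the group mean and SD (black bars) for 2 probes of Fbl and 4 of the 9 probes of Taf1d; each panel has its own vertical scale, which does not start at 0. The Fbl probes move in opposite directions in Mdr2-KO, and the Taf1d probe of largest difference separates Mdr2-KO (7.22 to 7.47) from the other groups.

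Box H/ACA snoRNP proteins moved in opposite directions. Nhp2, a core RNA-binding protein of the particle, read 6.57, 6.72 and 6.42 in wild type, 7.39, 7.28, 7.38, 7.52 and 7.44 in Mdr2-KO, and 6.90 to 7.59 (median 7.26) in Mdr2-KO/IL6-KO. All 11 knockout arrays lay above the highest wild-type array. Nhp2 rose by 0.83 (SE 0.14, adjusted p = 0.000954) in Mdr2-KO and by 0.70 (SE 0.13, adjusted p = 0.00286) in Mdr2-KO/IL6-KO, and the knockouts differed by -0.14 (adjusted p = 0.437).

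Gar1, which binds the catalytic subunit and helps release the modified RNA, read 7.68, 7.76 and 7.68 in wild type, 7.18, 7.13, 7.02, 7.18 and 7.16 in Mdr2-KO, and 7.49 to 7.78 (median 7.62) in Mdr2-KO/IL6-KO. Mdr2-KO stood apart from both other groups, which overlapped. Gar1 fell by 0.57 on the log2 scale in Mdr2-KO (SE 0.07, adjusted p = 7.59e-05), differed by -0.08 in Mdr2-KO/IL6-KO against wild type (95% interval -0.22 to 0.07), and was higher by 0.50 in Mdr2-KO/IL6-KO than in Mdr2-KO (SE 0.06, adjusted p = 0.000391). This was the smallest adjusted p among the members in the first and in the last of these comparisons.

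Dkc1 encodes dyskerin, the pseudouridine synthase of the particle and a partner of telomerase RNA. It read 7.49, 7.71 and 7.58 in wild type, 6.92, 6.83, 7.04, 7.18 and 7.16 in Mdr2-KO, and 6.90 to 7.45 (median 7.14) in Mdr2-KO/IL6-KO. Every knockout array lay below the lowest wild-type array. Dkc1 fell by 0.57 (SE 0.12, adjusted p = 0.00374) in Mdr2-KO and by 0.47 (SE 0.11, adjusted p = 0.0127) in Mdr2-KO/IL6-KO on the log2 scale, the latter missing the threshold without wild type array 2 (-0.41, adjusted p = 0.0639). Nop10, the small protein that braces dyskerin, was at 9.53 to 9.80 in wild type, 9.69 to 9.82 in Mdr2-KO and 9.79 to 9.95 in Mdr2-KO/IL6-KO. It passed in no comparison of the main fit (differences 0.08 and 0.19 from wild type, adjusted p = 0.419 and 0.0653). The difference of 0.19 passed under quantile normalization (limma adjusted p = 0.0410) and with the third of genes of lowest mean left out (adjusted p = 0.0435). Without wild type array 1 it was 0.26 and passed (adjusted p = 0.0333).

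Nucleolar scaffold and chaperone genes passed in no comparison, with 1 of 3 under an unadjusted p of 0.05 in each. Npm1, the histone and ribosomal protein chaperone nucleophosmin, read 9.61, 9.71 and 9.64 in wild type, 9.46, 9.09, 9.20, 9.29 and 9.06 in Mdr2-KO, and 9.10 to 9.24 on 5 arrays of Mdr2-KO/IL6-KO against 9.95 on array 6. Its differences were -0.44 (SE 0.15, adjusted p = 0.0551) and -0.35 (SE 0.15, adjusted p = 0.146). Without Mdr2-KO/IL6-KO array 6 they were -0.44 (adjusted p = 0.00294) and -0.48 (adjusted p = 0.00204), so both calls changed with this array. The first also passed under quantile normalization (adjusted p = 0.0475), with the third of genes of lowest mean left out (adjusted p = 0.0491), with only the 2 groups compared, which leaves that array out too (adjusted p = 0.0143), and without Mdr2-KO array 1 (adjusted p = 0.0469). Another 3 probes name Npm1 together with the predicted gene Gm15484, and their differences in Mdr2-KO were -0.29, -0.41 and -0.28. Ncl, nucleolin, read 9.14 to 9.55 over all arrays, with differences of 0.06 and 0.03 from wild type. Nolc1, a chaperone of snoRNPs, read 7.57 to 7.72 in Mdr2-KO, below the wild-type range of 7.73 to 7.79, and its difference of -0.11 did not pass (adjusted p = 0.190).

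Of 12 small subunit assembly genes, 0 passed in Mdr2-KO against wild type (limma; 2 under an unadjusted p of 0.05). Over all genes 8.89% rose and 12.1% fell there. Of 43 other small subunit genes, 8 rose and 2 fell, so the count of 0 covers the 12 listed alone. That count of 0 did not hold in every setting. Utp18 passed as higher without wild type array 2 (0.53, limma adjusted p = 0.0236), and Imp4 and Utp15 each passed in settings given below. Differences of the 12 ran from -0.17 for Nob1, the nuclease of the last cut of small subunit RNA, to 0.33 for Utp18. Utp3, an early factor of the processome that assembles on the precursor, read 6.55, 6.57 and 6.51 in wild type, 6.68, 6.65, 6.58, 6.67 and 6.47 in Mdr2-KO, and 6.24 to 6.41 (median 6.35) in Mdr2-KO/IL6-KO. All 6 Mdr2-KO/IL6-KO arrays lay below every other array. Utp3 was lower by -0.27 in Mdr2-KO/IL6-KO than in Mdr2-KO (SE 0.05, adjusted p = 0.00872) and by -0.20 than in wild type (SE 0.06, adjusted p = 0.0455). The call against wild type was lost on leaving out any of 12 arrays (adjusted p 0.0505 to 0.123), and under centring, all probes tested, trend and robust moderation or only the 2 groups compared (adjusted p 0.0543 to 0.0622). Utp3 is on chromosome 5, the chromosome of Il6 and Abcb4, and whether sequence carried along with the deletions touches it was not tested.

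Imp4, which pairs with Imp3 to join the guide RNA to the precursor, read 9.14, 9.22 and 9.17 in wild type, 9.00, 8.95, 9.07, 9.01 and 9.07 in Mdr2-KO, and 9.11 to 9.25 (median 9.19) in Mdr2-KO/IL6-KO. It was higher by 0.16 in Mdr2-KO/IL6-KO than in Mdr2-KO (SE 0.05, adjusted p = 0.0434), and its difference of -0.16 in Mdr2-KO against wild type did not pass (adjusted p = 0.0587). The call between the knockouts was lost on leaving out any of 11 arrays (adjusted p 0.0514 to 0.0968). The fall in Mdr2-KO passed under quantile normalization (-0.18, limma adjusted p = 0.0362). It also passed with the third of genes of lowest mean left out (adjusted p = 0.0415). Imp3 had the highest level of the members, 9.85 to 10.31 over all arrays, with differences of 0.03 and 0.14 from wild type. The processome genes Utp6, Utp15, Utp20, Wdr43, Rrp9 and Nop14 and the export factor Rrp12 passed in no comparison of the main fit. Their differences lay between -0.15 and 0.20 in each comparison. Without Mdr2-KO array 2, Utp15 passed as higher in Mdr2-KO against wild type (0.25, limma adjusted p = 0.0491).

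Large subunit genes held the member with the biggest rise. Rrs1, which helps dock the smallest ribosomal RNA of the large subunit, read 6.24, 5.85 and 5.48 in wild type, 6.75, 6.84, 7.17, 6.58 and 6.80 in Mdr2-KO, and 6.01 to 6.55 (median 6.19) in Mdr2-KO/IL6-KO. Mdr2-KO was above both other groups, and 1 wild-type array was at the background. Rrs1 rose by 0.97 in Mdr2-KO (SE 0.16, adjusted p = 0.00102) and was lower by -0.60 in Mdr2-KO/IL6-KO than in Mdr2-KO (SE 0.13, adjusted p = 0.0151). Its difference of 0.37 from wild type in Mdr2-KO/IL6-KO did not pass (adjusted p = 0.139), but passed without wild type array 1 (0.56, adjusted p = 0.0398).

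Pes1 is known to work with Bop1 and Wdr12 as a complex in large subunit RNA processing. Pes1 read 6.91, 7.19 and 7.06 in wild type, 7.45, 7.41, 7.46, 7.50 and 7.41 in Mdr2-KO, and 7.26 to 7.50 (median 7.41) in Mdr2-KO/IL6-KO. Every knockout array was above wild type, and Pes1 rose by 0.39 (SE 0.07, adjusted p = 0.00208) and by 0.35 (SE 0.07, adjusted p = 0.00401). Bop1 read 7.77 to 7.84 in wild type, 7.79 to 7.93 in Mdr2-KO and 7.86 to 8.06 in Mdr2-KO/IL6-KO, with differences of 0.07 and 0.17 that did not pass (adjusted p = 0.412 and 0.0919). Wdr12 differed by -0.03 in Mdr2-KO/IL6-KO against wild type (95% interval -0.19 to 0.12).

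Nop16, a factor of early large subunit particles, read 9.40, 9.44 and 9.33 in wild type, 9.12, 8.99, 9.20, 9.19 and 9.10 in Mdr2-KO, and 9.33 to 9.58 (median 9.45) in Mdr2-KO/IL6-KO. As with Gar1, Mdr2-KO lay below both other groups. Nop16 fell by 0.27 on the log2 scale in Mdr2-KO (SE 0.07, adjusted p = 0.0122) and was higher by 0.33 in Mdr2-KO/IL6-KO than in Mdr2-KO (SE 0.06, adjusted p = 0.00405). Nop2, a methyltransferase of large subunit RNA, read 7.45, 7.76 and 7.57 in wild type, 7.32, 7.30, 7.45, 7.40 and 7.42 in Mdr2-KO, and 7.45 to 7.61 (median 7.53) in Mdr2-KO/IL6-KO. It fell by 0.22 in Mdr2-KO (SE 0.07, adjusted p = 0.0410), a call lost on leaving out any of 7 arrays (adjusted p 0.0512 to 0.170) and under centring of the arrays (adjusted p = 0.0795), array weights (adjusted p = 0.109) or only the 2 groups compared (adjusted p = 0.106).

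Among the regulators, Myc was highest in Mdr2-KO/IL6-KO. It read 7.63, 7.96 and 7.34 in wild type, 8.04, 8.63, 7.87, 8.04 and 7.93 in Mdr2-KO, and 7.97 to 9.23 (median 8.35) in Mdr2-KO/IL6-KO. The lowest Mdr2-KO/IL6-KO array lay just above the highest wild-type array. In Mdr2-KO/IL6-KO, Myc rose by 0.82 (SE 0.23, adjusted p = 0.0317). Its differences of 0.46 in Mdr2-KO against wild type (SE 0.24, adjusted p = 0.176) and 0.36 between the knockouts (SE 0.20, adjusted p = 0.240) did not pass. The rise in Mdr2-KO/IL6-KO missed the threshold on leaving out array 1 of wild type (0.81, adjusted p = 0.0923), its array 3 (0.66, adjusted p = 0.154) or array 6 of Mdr2-KO/IL6-KO (0.76, adjusted p = 0.0532). It also missed it with all probes tested (adjusted p = 0.0567), with trend and robust moderation (adjusted p = 0.0548) and with only the 2 groups compared (adjusted p = 0.0540). Mybbp1a, a nucleolar partner of MYB proteins, differed by 0.22 and 0.25 from wild type without passing in the main fit (adjusted p = 0.0839 and 0.0703). Both differences passed with array weights (limma adjusted p = 0.0493 and 0.0375) and without wild type array 2 (adjusted p = 0.0432 and 0.0449). The difference in Mdr2-KO/IL6-KO also passed without array 5 of that group (adjusted p = 0.0486). Ddx21, a helicase of polymerase I and II transcripts, differed by -0.05 and 0.09.

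Some members of the family carry snoRNA genes within their own span. RefSeq places 21 snoRNA genes inside 6 members (Taf1d 6, Nop56 5, Nop58 4, Wdr43 3, Ncl 2 and Dkc1 1), and 4 of them were measured by a probe of their own. Snord57, a box C/D snoRNA inside Nop56, read 10.71, 10.73 and 10.52 in wild type, 11.51, 11.06, 11.16, 11.28 and 11.25 in Mdr2-KO, and 10.88 to 11.06 (median 10.94) in Mdr2-KO/IL6-KO. It differed by 0.60 in Mdr2-KO against wild type (adjusted p = 0.00045), by 0.30 in Mdr2-KO/IL6-KO (adjusted p = 0.0328) and by -0.30 between the knockouts (adjusted p = 0.0241), while Nop56 differed by 0.14, 0.14 and 0.01. The difference between snoRNA and host, taken on each array, was tested by a 2-sided exact permutation test over arrays, chosen after the data were seen and adjusted over 12 tests. Snord57 exceeded Nop56 by 0.46 more in Mdr2-KO than in wild type (exact p = 0.0179, adjusted 0.0429), by 0.16 more in Mdr2-KO/IL6-KO than in wild type (exact p = 0.0119, adjusted 0.0357), and by -0.30 in Mdr2-KO/IL6-KO against Mdr2-KO (exact p = 0.00217, adjusted 0.0260).

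Snord82, a box C/D snoRNA inside Ncl, read 9.52, 9.95 and 9.70 in wild type, 10.87, 10.14, 10.28, 10.02 and 10.77 in Mdr2-KO and 10.13 to 10.51 in Mdr2-KO/IL6-KO. All knockout arrays were above wild type. Relative to Ncl it was higher by 0.63 in Mdr2-KO (exact p = 0.0893, adjusted 0.153) and by 0.58 in Mdr2-KO/IL6-KO (exact p = 0.0119, adjusted 0.0357). Snord53, inside Wdr43, was higher relative to its host by 0.41 in Mdr2-KO/IL6-KO than in wild type (exact p = 0.0119, adjusted 0.0357), which missed the threshold without wild type array 1 or 2. Leaving out a wild-type array raises the smallest exact p that is possible, for every snoRNA and not for Snord53 alone. Snora75, inside Ncl, had differences from its host between -0.13 and 0.13, with exact p from 0.450 to 0.988, and lay near the background (5.06 to 5.96). Of all genes, 8.89% rose and 12.1% fell in Mdr2-KO, and 6.96% rose and 5.33% fell in Mdr2-KO/IL6-KO against wild type. Between the knockouts 5.04% were higher and 3.72% lower. Over the 54 snoRNA genes measured, 38 rose and 0 fell in Mdr2-KO (median difference 0.87), 20 rose and 0 fell from wild type to Mdr2-KO/IL6-KO (0.31), and 0 were higher and 30 lower in Mdr2-KO/IL6-KO than in Mdr2-KO (-0.47), by limma. Members that encode snoRNP proteins did not share that single direction: of the 7 proteins of the box C/D and H/ACA cores, Nop58, Nhp2 and, by its brighter probe, Fbl rose in Mdr2-KO and Dkc1 and Gar1 fell.

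**Figure D5:**
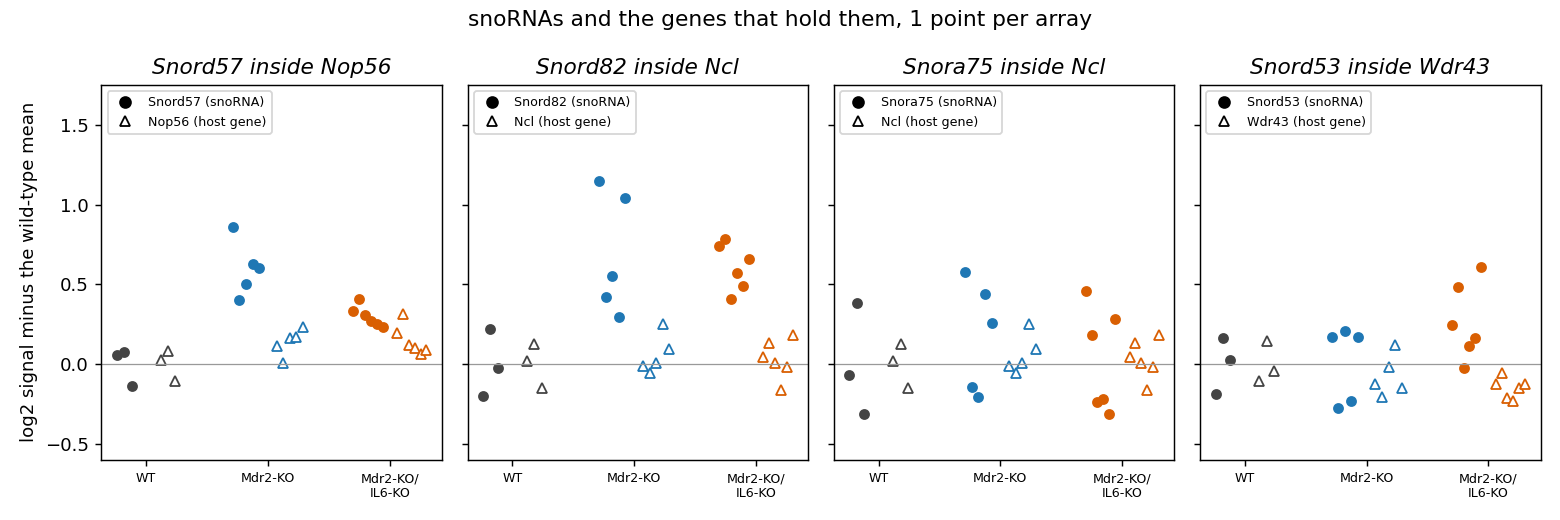
Log2 signal of 4 snoRNAs (filled circles) and of the member gene that holds each (open triangles), minus the wild-type mean, 1 point per array. Snord57 stands at 0.60 on average above wild type in Mdr2-KO, where Nop56 stands at 0.14.

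Genes of the same pathway outside the 37 were also split. Of 127 listed, 124 were measured. In Mdr2-KO against wild type 17 rose (13.7%) and 16 fell (12.9%), and their median difference was -0.01, in Mdr2-KO/IL6-KO against wild type 7 rose and 13 fell (5.65% and 10.5%), and between the knockouts 6 were higher and 10 lower (4.84% and 8.07%). The shares over all genes, in the same order, were 8.89% and 12.1%, 6.96% and 5.33%, and 5.04% and 3.72%. In Mdr2-KO, the polymerase I factors Taf1a (-0.55, SE 0.12, adjusted p = 0.00479) and Rrn3 (-0.31, SE 0.07, adjusted p = 0.00805) fell with Polr1b and Ubtf, while the subunit Polr1d rose (0.22, adjusted p = 0.0488). Of 13 other snoRNP proteins and assembly factors, 3 rose and 3 fell in Mdr2-KO, with Rpap3 (0.44, adjusted p = 0.0309) and Pih1d1 (0.40, adjusted p = 0.00210) among those that rose and Znhit6 (-0.35, adjusted p = 0.0462) among those that fell. Tgs1 was lower in Mdr2-KO/IL6-KO than in Mdr2-KO (-0.43, SE 0.07, adjusted p = 0.00275), as was Pih1d1 (-0.34, adjusted p = 0.00517).

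For the counts in this paragraph, 8.89% of all genes rose and 12.1% fell in Mdr2-KO, and 6.96% rose and 5.33% fell in Mdr2-KO/IL6-KO. Of 43 other small subunit genes, 8 rose and 2 fell in Mdr2-KO, and 3 rose and 4 fell in Mdr2-KO/IL6-KO. The kinase Riok2 fell in both knockouts (-0.94 and -0.71, adjusted p = 0.000466 and 0.00299), the methyltransferase Bud23 fell in Mdr2-KO (-0.62, adjusted p = 4.14e-05) and Mphosph10 was among the 8 that rose there (0.48, adjusted p = 0.00333). Of 51 other large subunit genes, 5 rose and 9 fell in Mdr2-KO, and 4 rose and 5 fell in Mdr2-KO/IL6-KO. Rsl24d1 rose in Mdr2-KO (0.997, SE 0.13, adjusted p = 0.000176) and was lower in Mdr2-KO/IL6-KO than in Mdr2-KO (-0.73, adjusted p = 0.00186), as Rrs1 was. Eif6, which keeps the subunits apart, rose in both knockouts (0.69 and 0.77, adjusted p = 0.00311 and 0.00140), and Rpf1 fell in both (-0.68 and -0.44, adjusted p = 0.000214 and 0.00415). Of the 13 RNA exosome genes, which trim ribosomal precursors, 2 rose and 5 fell in Mdr2-KO, led by Mphosph6 (-0.65, adjusted p = 0.0164) and Exosc7 (0.51, adjusted p = 0.00221). Of 14 genes of the MYC network, 0 rose and 2 fell in Mdr2-KO, namely Mlx (-0.32, adjusted p = 0.0118) and Bin1 (-0.28, adjusted p = 0.0184). By limma, 0 of the 14 passed in Mdr2-KO/IL6-KO against wild type (4 under an unadjusted p of 0.05). Gas5, a noncoding host of snoRNAs, rose in both knockouts (0.77 and 0.57, adjusted p = 0.00338 and 0.0221).

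Markers of other cells moved between the same groups. Against wild type, 8.89% of all genes rose and 12.1% fell in Mdr2-KO, and 6.96% rose and 5.33% fell in Mdr2-KO/IL6-KO. Cholangiocyte markers, bile duct genes such as Tspan8 and Cd24a, rose in 5 of 8 and 6 of 8 in the knockouts against wild type, with mean levels of 6.06 to 6.50 in wild type, 6.83 to 7.67 in Mdr2-KO and 6.92 to 7.76 in Mdr2-KO/IL6-KO. Macrophage markers rose in 3 and 4 of 10, from 8.00 to 8.24 in wild type to 8.26 to 8.47 and 8.22 to 8.66. Stellate cell and fibroblast markers rose in 3 and 4 of 10 with 1 lower in each, at 7.96 to 8.07, 7.91 to 8.65 and 8.19 to 8.65. T and B cell markers fell in 4 and 5 of 8, from 6.36 to 7.31 to 5.68 to 6.22 and 5.77 to 6.35. Hepatocyte markers were at 12.34 to 12.54 on all arrays, with 0 of 8 passing against wild type (limma; 1 under an unadjusted p of 0.05 in each). None of 13 proliferation markers passed in any comparison (limma; 1, 0 and 1 under an unadjusted p of 0.05). Between the knockouts, where Gar1, Nop16, Nop58, Rrs1 and Utp3 differed, 0 of 8 cholangiocyte, 0 of 8 T and B cell and 0 of 10 stellate cell markers passed (2, 1 and 1 under an unadjusted p of 0.05), while 2 of 10 macrophage markers, Marco and Trem2, were higher and 1 hepatocyte marker, Fga, was lower. The part of these cells in the results was not tested.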

How the data were processed

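Total RNA from mouse liver was measured on 14 Affymetrix arrays. The deposited values are log2 signals, which the authors made with RMA in Partek, per the submitters' processing notes. For versions, annotation and filters, nothing was given in the sources used here. Of 35557 probes, 21789 name 1 gene, 1621 name several and 12147 name none. Symbols were updated through gene identifiers (21698 matched), and each of 19938 genes was read through its single-gene probe of highest mean (999 genes had more than 1). A model of 3 group means was fitted in limma 3.58.1 (R 4.3.3) with empirical Bayes moderation, 2-sided tests and Benjamini-Hochberg adjustment over all 19938 genes, at a threshold of 0.05. The procedure was tested on simulated data. No filter on dim genes was applied. No batch is labelled. Tables and plots were made with Python 3.11.15, pandas 2.3.3, scipy 1.17.1 and matplotlib 3.10.9. The number of arrays limits precision.

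Members and lists were chosen with earlier results of these data known. Values by array are given for members past the threshold in at least 1 comparison and for Myc, Fbl and Dkc1. Npm1, Nolc1 and the snoRNA tests were shown in more detail after their values were seen. From each other list up to 3 called genes of largest change per comparison could be named. Promoters come from RefSeq (GRCm38.p6). Alternatives were quantile normalization, centring, a filter on dim genes, all probes tested, the mean over the probes of a gene, trend and robust moderation, array weights, only the 2 groups compared and each array left out. Own-locus probes for Fbl, Taf1d and Wdr12 were added after the data were seen.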

Additional observations from a re-analysis of the deposited data

Results flagged for a closer look

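Among 74 groups of 5 or 6 arrays looked at over the members, 3 held an array far from the rest, where chance gives about 1 in 20 groups. Npm1 read 9.95 on Mdr2-KO/IL6-KO array 6, against 9.10 to 9.24 on the other 5 arrays of that group. Nolc1 read 7.92 on Mdr2-KO/IL6-KO array 2, against 7.72 to 7.79 on the others. Myc read 8.63 on Mdr2-KO array 2, against 7.87 to 8.04 on the others. Over all members, Mdr2-KO array 2 was the lowest of its group for 21 of 37 and Mdr2-KO/IL6-KO array 2 the highest of its group for 17 of 37.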

How the results depend on the processing

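In Mdr2-KO against wild type, Dkc1, Gar1, Nhp2, Nop16, Pes1, Polr1b, Rrs1 and Ubtf kept direction and call under all 23 alternatives run, as did Nhp2 and Pes1 for Mdr2-KO/IL6-KO, and Gar1, Nop16, Nop58, Rrs1 and Utp3 between the knockouts. Not all alternatives could change a difference. Each of these members has 1 probe, so the mean over probes and the own-locus probes left its values as they were. Leaving out an array of the group not compared changes only the estimate of spread. The same limits apply to most members in the totals that follow. Over 2553 alternative values of single members, 2429 kept their side of the threshold (65 of them with a change of sign where neither value passed), 89 lost the call, 31 gained it and 4 reversed, all 4 of Fbl: in Mdr2-KO against wild type to -0.0898 with the mean of its probes and -0.38 with the own-locus probe, and between the knockouts to 0.18 and 0.38. The count lower in Mdr2-KO/IL6-KO against wild type went from 2 to 1 with centred arrays, all probes tested, trend and robust moderation, or only the 2 groups compared. The count higher between the knockouts went from 6 to 2 with centred arrays; the cause was not tested.

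With 1 array left out, the counts higher and lower ran from 3 to 6 and 5 to 7 in Mdr2-KO against wild type, 2 to 5 and 0 to 4 for Mdr2-KO/IL6-KO, and 2 to 6 and 3 to 4 between the knockouts. The lowest count of 3 came without wild type array 3, the highest of 5 without Mdr2-KO/IL6-KO array 5, the 0 without wild type array 2 and the 4 without Mdr2-KO/IL6-KO array 6. The count of 2 between the knockouts came without Mdr2-KO array 1 or without Mdr2-KO/IL6-KO array 2, 4, 5 or 6, and 3 remained without Mdr2-KO array 2 or 4. No paired analysis was run because the labels name no pairing of arrays between the groups. Signals near the background, as for Rrs1 in wild type, understate changes.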
